A study of Rattus norvegicus with 11 samples.

Results

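This report compares all lungs kept in low oxygen, with or without the drug SU5416, with lungs kept in room air. The 7 hypoxic arrays were taken as 1 group by their labels and set against the 4 room air arrays, which together are all 11 arrays of the series held here. The animals were Dahl salt-sensitive rats weighing 250 to 350 g, and whole lung was profiled after 3.5 weeks. Room air (normoxia) animals had vehicle (n = 4), hypoxia animals breathed about 9.5% oxygen and had vehicle (n = 4), and the other hypoxic group had the same hypoxia with SU5416 (n = 3), a small molecule that blocks receptors of vascular endothelial growth factor (VEGF). A further group given sorafenib was not analysed here.

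Every animal carried the salt-sensitive background, room air controls included, and no group had SU5416 in room air. The lungs were perfused through the pulmonary artery before RNA was taken. The labels do not say that each array came from a separate animal, so the p-values measure the spread between these arrays, which may in part be technical. Because whole lung was used, fewer cells of a type and less RNA per cell cannot be told apart in any value below. Markers of endothelium, alveolar and airway epithelium, smooth muscle, fibroblasts and leukocytes all had mean signals above background.

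Cells sense low oxygen mainly through the hypoxia-inducible factors (HIF), transcription factors whose alpha subunits are hydroxylated and destroyed when oxygen is plentiful. When oxygen falls they bind short DNA motifs and switch on genes for glucose uptake, glycolysis, angiogenesis and red cell production. In the lung, sustained hypoxia also constricts and thickens small pulmonary arteries and loads the right ventricle. Blocking VEGF receptors during hypoxia worsens this disease in rats, and the combination is a common model of severe pulmonary hypertension.

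Signals are log2 intensities, 1 per probe set and array, and a difference of 1 is a doubling. Of 31099 probe sets, 57 were array controls and 31042 were tested. Background was set at 5.72 log2, the 95th percentile of 27 Bacillus control probe sets, and the mean of 18.8% of the probe sets lay under it. Where 1 group lies under background its fold is a lower limit, given as "at least" and computed from that level. The distance between 3′ and 5′ beta-actin probe sets, a measure of RNA integrity, was 2.24 log2 on room air array 1 and 1.33 on room air array 2, against 0.51 to 0.87 on the other 9 arrays. For this reason differences without these 2 arrays stand beside results that they move by over 1.5 times.

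With all 11 arrays, 1 of 31042 probe sets (0.00322%) passed the test at an adjusted p below 0.05 (limma, Benjamini-Hochberg), and it was higher in hypoxia. No probe set was called lower (0.0%). At an unadjusted p below 0.05 there were 4018 (12.9%), of which 1381 were higher (4.45%) and 2637 lower (8.49%). That split depended on the scaling. It was 1859 higher and 1895 lower after quantile normalization, and 2322 higher and 1624 lower after each array was centred on its median. At an adjusted p below 0.1 there were 29 (0.0934%), 16 higher (0.0515%) and 13 lower (0.0419%), and all 29 had the same sign in both hypoxic groups. The median standard error (SE) of a difference was 0.17 log2.

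The count of calls moved with the arrays and settings used. Without room air arrays 1 and 2 it was 55 (0.177%), 38 higher (0.122%) and 17 lower (0.0548%). Testing only the brighter part of the probe sets, those with a mean above the median, gave 27 of 15521 (0.174%), 10 higher (0.0644%) and 17 lower (0.11%). Moderating the variances with trend and robust options gave 23 (0.0741%), 14 higher (0.0451%) and 9 lower (0.029%), and quantile normalization gave 0 (0.0%). Leaving out hypoxia array 4 gave 21 calls and leaving out room air array 2 gave 8, whereas it was 3 without SU5416 array 2, 2 without room air array 1 or hypoxia array 1, 0 without room air array 4, hypoxia array 2 or SU5416 array 1, and 1 without each of the other 3.

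A second description needs no variance estimate. In 759 of 31042 probe sets (2.45%) all 7 hypoxic arrays lay on the same side of all 4 room air arrays, 238 above (0.767%) and 521 below (1.68%). This split followed the scaling: it was 320 above (1.03%) and 437 below (1.41%), 2.44% in all, after quantile normalization, and 402 above and 308 below after each array was centred on its median. The median difference over all probe sets was -0.044 log2 as deposited, -0.001 after quantile normalization and 0.028 after centring. Counting 1 probe set per gene, 344 of 14217 genes (2.42%) did not overlap, 164 above (1.15%) and 180 below (1.27%). Without room air arrays 1 and 2 the count over all probe sets was 5187 (16.7%), 2025 above (6.52%) and 3162 below (10.2%), since fewer arrays can more easily stand apart. Leaving out 1 array gave 1187 without room air array 1, 1852 without array 2, 1391 without array 3, 1313 without array 4 and 1293 without hypoxia array 4, and 882 to 997 without 1 of the other 6. Among the 759, the median size of the difference was 0.49 log2, and 72 differed by at least 2-fold with the brighter side above background, 18 higher and 54 lower.

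The hypoxic groups share the 4 room air arrays, so their differences from room air are not independent of each other. Over all probe sets 70.8% had the same sign in both, as did 71.2% of genes, and the 759 have it by construction. The direct test of SU5416 with hypoxia against hypoxia, which does not use the room air arrays for its difference, called 8 of 31042 probe sets (0.0258%, limma) and none of the 759. At an unadjusted p below 0.05, 61 of the 759 differed between the hypoxic groups (8.04%), near the 7.47% over all probe sets. A missed threshold does not show that the drug left these genes alone, and intervals are given below for the genes described.

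**Figure D1:**
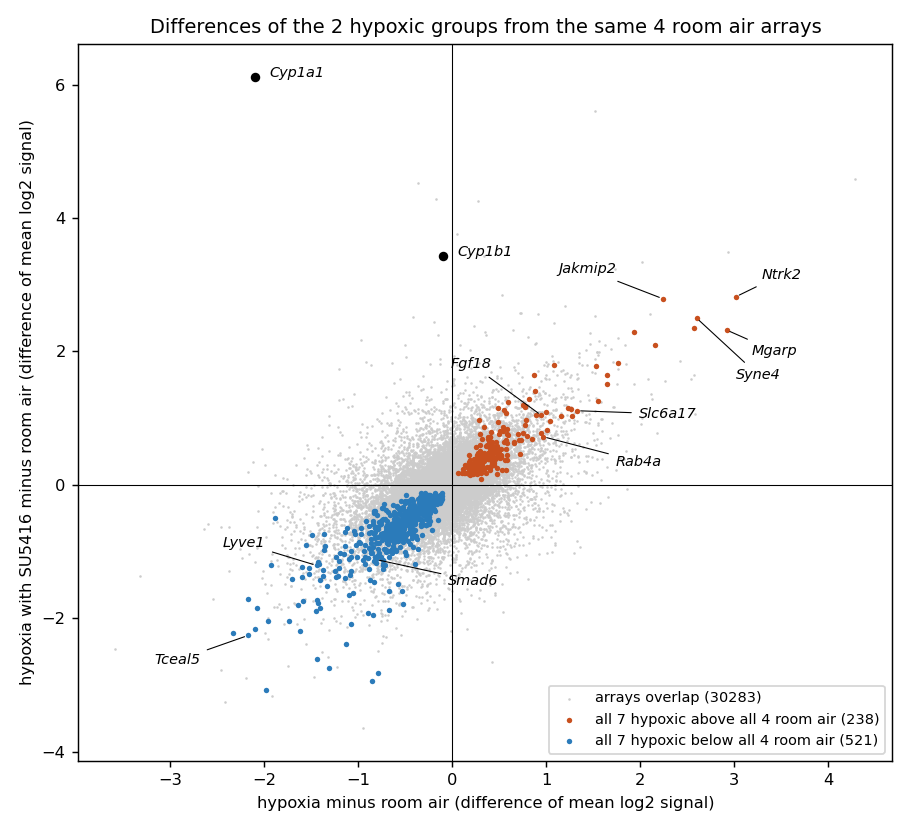
Each point is 1 of 31042 probe sets, with its difference from room air in hypoxia (horizontal axis, log2) and in hypoxia with SU5416 (vertical axis, log2). Orange and blue points are the 238 and 521 probe sets whose 7 hypoxic arrays all lie above or below the 4 room air arrays; they lie in the upper right and lower left, whereas Cyp1a1 and Cyp1b1 (black) are high in hypoxia with SU5416 and not in hypoxia without it.

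The probe set that rose was one for Slc6a17 (1384302_at), which encodes a vesicular transporter of neutral amino acids best known from neurons. Its signal was 5.61, 5.99, 5.82 and 5.34 log2 on room air arrays 1 to 4, 6.98, 7.09, 7.15 and 6.87 on the hypoxia arrays, and 6.73, 6.75 and 6.92 on the SU5416 arrays. No hypoxic array came within the room air range, and the hypoxic groups lay close together. The mean rose from 5.69 ± 0.28 (SD, n = 4) to 6.93 ± 0.16 (SD, n = 7), a difference of 1.24 with an SE of 0.13 (limma, adjusted p = 0.0484). The room air mean is below background, so the fold is at least 2.31. SU5416 minus hypoxia was -0.23 (95% interval -0.57 to 0.12).

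This call is narrow. Of the 11 fits that each left out 1 array, 8 lost it: without room air array 1 (adjusted p = 0.102), 3 (0.105) or 4 (0.125), hypoxia array 1 (0.0693), 2 (0.0956) or 3 (0.0754), or SU5416 array 1 (0.101) or 3 (0.0664), all with limma. It was also lost after quantile normalization (0.0656), after centring (0.0551), with the replicate number as a block (0.0848) and with the beta-actin gap as a covariate (0.091). Over these fits the difference itself stayed between 1.12 and 1.35 log2. The brightest Slc6a17 probe set differed little, from 7.25 ± 0.53 (SD, n = 4) in room air to 7.05 ± 0.34 (SD, n = 7) in hypoxia. Its difference was -0.21 (adjusted p = 0.759, limma), and 0.02 without room air arrays 1 and 2. The 5 Slc6a17 probe sets differed by -0.21 to 1.24. Only the called one had arrays without overlap, so the Slc6a17 probe sets disagree.

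The genes next in order of p, given as values and not as changes, were chosen among probe sets whose arrays did not overlap. Ntrk2 (1397246_at), which encodes TrkB, the receptor for brain-derived neurotrophic factor, had the largest difference of the 15 genes on the high side. Signal was 8.12, 7.69, 9.31 and 8.35 log2 in room air, 12.29, 12.09, 11.52 and 9.66 in hypoxia, and 10.95, 11.55 and 11.06 with SU5416. Hypoxia array 4 lay nearest to room air, above room air array 3 by a small margin. The means were 8.37 ± 0.69 (SD, n = 4) and 11.30 ± 0.87 (SD, n = 7), a difference of 2.93 with an SE of 0.47, or 7.64-fold (limma, adjusted p = 0.0818).

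A second Ntrk2 probe set showed the same pattern, 8.61, 8.56, 9.77 and 9.27 log2 in room air, 12.51, 12.16, 11.66 and 10.17 in hypoxia, and 11.23, 11.64 and 11.32 with SU5416. The difference there was 2.48 with an SE of 0.40, or 5.57-fold (limma, adjusted p = 0.0818). On another probe set the mean went from 4.90, below background, to 9.33, at least 12.2-fold, although hypoxia array 4 (6.33) lay just under room air array 3 (6.35). The remaining Ntrk2 probe sets differed by 0.49 and 0.48, the last with both means below background. Both brighter probe sets passed when dim probe sets were left out before the test (adjusted p = 0.0265, limma), and neither did without room air arrays 1 and 2 (0.133 and 0.135). SU5416 minus hypoxia was -0.20 (95% interval -1.53 to 1.12), an interval wide enough to hold a 2-fold difference in either direction.

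Mgarp (1393627_at), a mitochondrial protein described as a HIF-1 target that links mitochondria to transport along microtubules, was below background in room air at 5.41, 4.59, 4.65 and 5.42 log2. In hypoxia it stood at 8.73, 8.92, 7.51 and 6.59, and with SU5416 at 7.26, 7.44 and 7.32. All 7 hypoxic arrays were above background and above every room air array, with hypoxia array 4 again the lowest. The difference was 2.66 with an SE of 0.42, at least 3.9-fold (limma, adjusted p = 0.0818), and SU5416 minus hypoxia was -0.60 (95% interval -1.72 to 0.53).

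For Rab4a, a small GTPase of endosome recycling, signal was 8.84, 9.30, 8.96 and 9.04 in room air, 10.23, 10.17, 9.97 and 9.65 in hypoxia, and 9.71, 9.87 and 9.67 with SU5416, a difference of 0.86 with an SE of 0.14, or 1.82-fold (limma, adjusted p = 0.0888). Fgf18, a fibroblast growth factor active in lung development, stood at 6.59, 6.66, 6.24 and 5.82 in room air, 7.29, 7.22, 7.36 and 7.25 in hypoxia, and 6.95, 7.49 and 7.67 with SU5416. The gap between the lowest hypoxic array and the highest room air array was small, and the mean difference was 0.99 with an SE of 0.18 (limma, adjusted p = 0.124; 0.0427 without room air arrays 1 and 2). Glp1r, the receptor for glucagon-like peptide 1, was 9.55, 9.62, 9.40 and 9.32 in room air, 10.07, 10.20, 10.15 and 9.79 in hypoxia, and 10.29, 10.18 and 10.22 with SU5416, or 1.57-fold higher (limma, adjusted p = 0.0933).

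The other genes on the high side were less familiar in lung. C10h16orf89 averaged 9.04 ± 0.15 (SD, n = 4) in room air and 10.08 ± 0.24 (SD, n = 7) in hypoxia, or 2.06-fold higher (limma, adjusted p = 0.0798). Selenow, the selenoprotein W gene, averaged 10.35 ± 0.19 and 10.99 ± 0.07, or 1.56-fold higher (0.0798), and was called without room air arrays 1 and 2 (0.0356). Rhoc, a small GTPase that acts on actin, was 1.35-fold higher, and Mrpl2, a mitochondrial ribosomal protein gene, 1.51-fold. The zinc finger gene Zfp707 was 1.53-fold higher and C14h4orf19 was 1.43-fold higher. Jakmip2, the olfactory receptor gene Olr59 and Syne4, a gene of the outer nuclear membrane, had room air means below background and were higher by at least 1.14-fold, 1.71-fold and 3.37-fold.

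Jakmip2 and Syne4 were called when room air arrays 1 and 2 were left out, at adjusted p = 0.0381 and 0.00703 (limma). For Syne4, room air array 2 stood at 6.71 log2 and the other room air arrays at 3.72 to 4.72, whereas hypoxic arrays lay between 7.15 and 7.98. Leaving out that array removes the room air value closest to hypoxia.

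Among genes lower in hypoxia, Smad6 (1394025_at) was one of those with the smallest p. It encodes an inhibitory Smad that is switched on by bone morphogenetic protein (BMP) signalling and is abundant in endothelium. Signal was 11.73, 11.70, 11.45 and 11.36 log2 in room air, 10.70, 10.58, 10.78 and 10.96 in hypoxia, and 10.51, 10.29 and 10.51 with SU5416. All hypoxic arrays were lower than all room air arrays, and the SU5416 arrays were the lowest. The difference was -0.94 with an SE of 0.13, or 1.92-fold lower (limma, adjusted p = 0.0798; 0.0243 among the brighter probe sets). SU5416 minus hypoxia was -0.32 (95% interval -0.62 to -0.02, not adjusted), and that contrast was not called. The other Smad6 probe sets differed by -0.58, 0.48 and -0.05 and their arrays overlapped.

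Dlc1 (1392520_at), a tumour suppressor gene, stood at 9.11, 8.71, 8.96 and 8.93 in room air, 8.43, 8.30, 8.05 and 8.39 in hypoxia, and 8.21, 8.16 and 8.11 with SU5416. The difference was -0.69 with an SE of 0.11, or 1.61-fold lower (limma, adjusted p = 0.0818). A second probe set, also without overlap, differed by -0.96, but the brightest Dlc1 probe set went from 12.04 to 11.92 and another from 10.53 to 10.66. The Dlc1 probe sets therefore disagree, and the lower values hold for 2 of 4.

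Clk1, a kinase of splicing factors, stood at 11.33, 10.95, 11.10 and 11.18 in room air, 10.17, 10.58, 10.50 and 10.62 in hypoxia, and 10.28, 10.47 and 10.24 with SU5416, or 1.66-fold lower (limma, adjusted p = 0.0818). Rsrp1, an arginine- and serine-rich protein gene, was 1.64-fold lower (0.124), and Tia1, an RNA-binding protein of stress granules, was 1.76-fold lower (0.131). The other Tia1 probe set differed by 0.16. Matr3, a nuclear matrix protein that binds RNA, was 1.68-fold lower on the probe set chosen (0.131), whereas its brightest probe set differed by only -0.03. Likewise the chosen Ap3s1 probe set was 1.63-fold lower and the brightest one differed by 0.15 (0.07 without room air arrays 1 and 2). Clk1 and Rsrp1 were called among the brighter probe sets (0.0265 and 0.0448).

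Grpr, the receptor for gastrin-releasing peptide, averaged 8.10 ± 0.13 (SD, n = 4) and 7.45 ± 0.20 (SD, n = 7), or 1.58-fold lower. Ceacam1, an adhesion molecule of epithelium, endothelium and leukocytes, was 1.4-fold lower, and E2f8, a repressor of the E2F family, 1.41-fold. RatNP-3b, a neutrophil defensin gene, averaged 7.08 ± 0.51 and 5.77 ± 0.20, or 2.49-fold lower (limma, adjusted p = 0.0818). Tceal5 averaged 5.83 ± 0.79 in room air and was below background in hypoxia at 3.62 ± 0.28, at least 1.08-fold lower, and it was called without room air arrays 1 and 2 (0.00703). Rimoc1, Zbtb24 and LOC100911253 completed the 15, at 1.38-fold, 1.46-fold and 1.65-fold lower. The other Zbtb24 probe set differed by 0.07.

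Lyve1 and Pgf were picked after their values had been seen. Lyve1, the hyaluronan receptor of lymphatic endothelium and of some tissue macrophages, stood at 12.75, 12.99, 12.33 and 12.44 in room air, 10.73, 10.63, 11.27 and 12.11 in hypoxia, and 11.62, 11.24 and 11.40 with SU5416. Hypoxia array 4 was the only hypoxic array close to the room air range. The difference was -1.34, or 2.53-fold lower (limma, adjusted p = 0.131), and a second probe set differed by -1.45 with overlap. Pgf, which encodes placental growth factor, a ligand of the VEGF receptor Flt1, averaged 6.91 ± 0.45 and 7.74 ± 0.21, or 1.78-fold higher (0.153). Its difference of 0.83 was 0.50 without room air arrays 1 and 2.

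**Figure D2:**
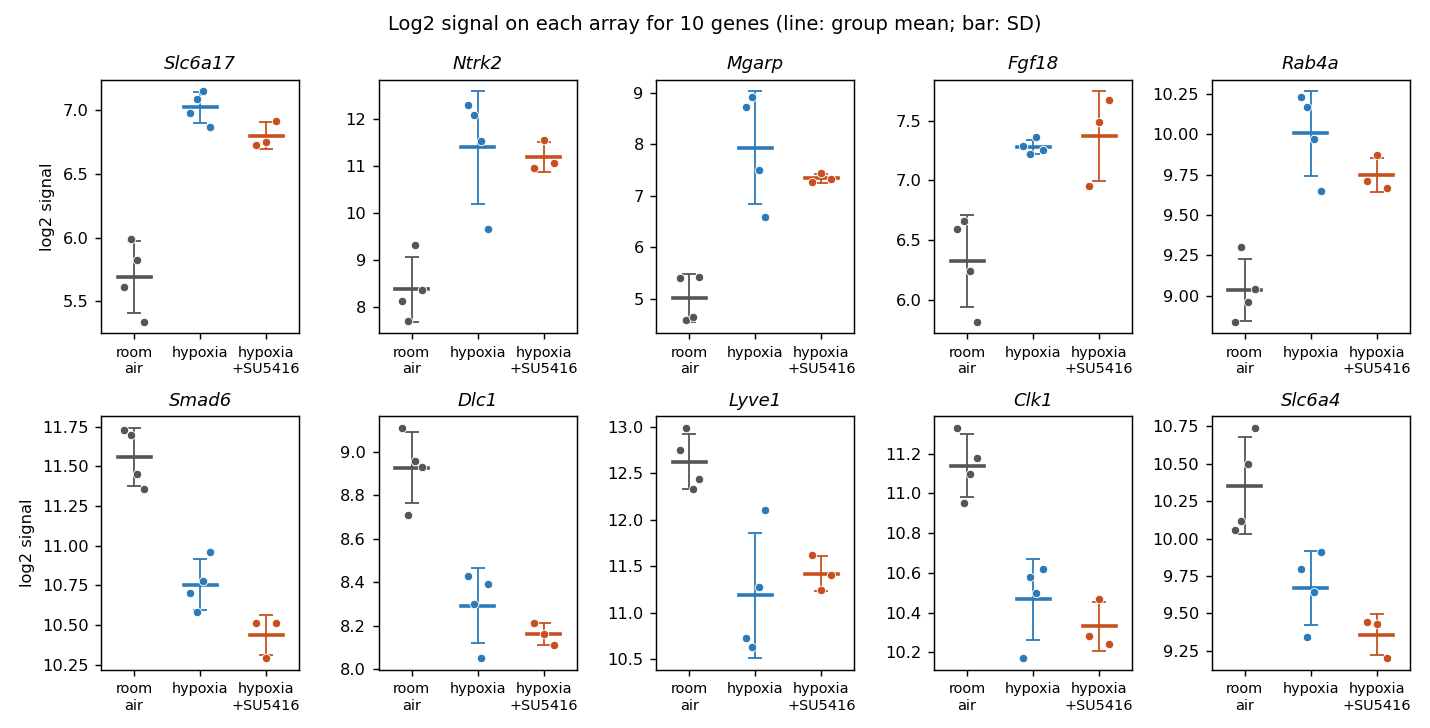
Log2 signal (vertical axis) on each of the 11 arrays for 10 genes, in room air (4), hypoxia (4) and hypoxia with SU5416 (3); lines are group means and bars the SD. In every panel the 7 hypoxic points lie on 1 side of the 4 room air points. Hypoxia array 4 is the hypoxic point nearest to room air in most panels: Ntrk2, Mgarp, Rab4a, Smad6, Lyve1, Clk1 and Slc6a4.

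The genes of 32 lists of pathways and cell types, chosen with earlier results of these data known, were read at the probe set of highest mean. Of their 779 symbols 696 were measured. None was called in the test of all arrays, so the lists are given as counts and medians beside those of all 14217 genes, whose median difference was -0.01. Of all genes, 33.8% were higher and 37.4% lower in both hypoxic groups. Arrays did not overlap for 2.42% of all genes, 1.15% above and 1.27% below. Members of a list without overlap are to be read beside that share. The median difference over all genes was -0.005 in hypoxia and -0.015 in hypoxia with SU5416.

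Of the 20 genes of glycolysis and glucose entry, 17 were higher in the hypoxic arrays and 15 were higher in both groups, with a median of 0.22 (0.26 without room air arrays 1 and 2). An unadjusted p below 0.05 (limma) was reached by 9 on the high side and 1 on the low side, against 4.45% and 8.49% of all probe sets. Those shares count probe sets and not genes, and their split by direction depended on the scaling. The arrays of Aldoa, Eno1, Eno2 and Ldha did not overlap on the high side and those of Pfkfb4 on the low side. That is 5 of 20 against 2.42% of all genes, in a list chosen with earlier results of these data known. Eno2 and Pfkfb4 are named here after their values were seen. Ldha, the lactate dehydrogenase subunit that turns pyruvate into lactate, stood at 11.63, 12.02, 11.84 and 11.78 in room air, 12.28, 12.19, 12.15 and 12.11 in hypoxia, and 12.37, 12.35 and 12.46 with SU5416. All hypoxic arrays lay above all room air arrays, with a difference of 0.46 and an SE of 0.10, or 1.37-fold (limma, adjusted p = 0.153).

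The enolase Eno1 averaged 11.15 ± 0.32 (SD, n = 4) and 11.65 ± 0.16 (SD, n = 7), and room air array 1 lay far below the other room air arrays, at 10.67 against 11.28 to 11.33. Without arrays 1 and 2 its difference was 0.33 in place of 0.50. Aldoa (aldolase) was 1.31-fold higher, Tpi1 (triosephosphate isomerase) 1.35-fold and Pfkl, the liver phosphofructokinase, 1.85-fold, with adjusted p between 0.187 and 0.209 (limma). Without room air arrays 1 and 2 the difference of Tpi1 was 0.25 in place of 0.43, and that of Pfkl 1.31 in place of 0.88. The glucose transporter Slc2a1 stood at 9.15 ± 0.14 and 9.32 ± 0.11, a difference of 0.17 (0.27 without those arrays). Pfkfb4, an enzyme that regulates phosphofructokinase activity, was 1.2-fold lower, and its other probe set differed by 0.05.

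Among 30 HIF targets and oxygen sensors, 18 were higher and 12 lower, with a median of 0.07 (0.02 without room air arrays 1 and 2). Bnip3, a mitophagy protein, stood at 10.08, 10.64, 10.28 and 10.25 in room air, 11.43, 11.46, 10.84 and 10.54 in hypoxia, and 11.32, 11.02 and 11.06 with SU5416, a difference of 0.78 or 1.72-fold (limma, adjusted p = 0.172). Hypoxia array 4 fell within the room air range. Ddit4, an inhibitor of the growth kinase complex mTORC1, was 1.7-fold higher, a difference of 0.76 that was 1.18 without those arrays, and Hif1a, the oxygen-regulated subunit itself, 1.27-fold. Bhlhe40, a transcriptional repressor, was the 1 member of 30 without overlap (2.42% of all genes). It averaged 8.55 ± 0.11 and 8.94 ± 0.16, or 1.31-fold higher. Vegfa, the main VEGF ligand, went the other way at 12.33 ± 0.29 and 12.01 ± 0.24, a difference of -0.32 with a 95% interval of -0.67 to 0.04. It was -0.10 without room air arrays 1 and 2, and the other Vegfa probe set differed by 0.07.

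The HIF recognition core is ACGTG or GCGTG, and both were searched on both strands of the 250 bases before the gene start. Of 33469 RefSeq promoters of rat build GRCr8, 36.7% hold at least 1 of them, 16.6% ACGTG and 25.9% GCGTG. The palindrome CACGTG counts as a match on each strand. At least 1 match was found for 12 of the 19 glycolysis genes with a promoter in the table (63.2%) and for 17 of 26 genes of the HIF list (65.4%). Shares as high or higher were found in other lists, 66.7% for cholesterol synthesis, 75.0% for immediate early genes and 85.7% for chaperones. A match is a description of the sequence and not a binding site. The windows of Aldoa, Tpi1, Pfkfb4 and Vegfa hold no match. The 4 promoters below are shown because Ldha and Bnip3 are textbook HIF targets, Mgarp had a wide separation and Slc6a17 was the called gene. They lie at chr1:106507842-106508091 (Ldha, plus strand), chr1:203154963-203155212 (Bnip3, minus), chr2:137590295-137590544 (Mgarp, minus) and chr2:197843884-197844133 (Slc6a17, minus), and capitals mark the matches, read 5′ to 3′ on the strand of the gene.
Ldha: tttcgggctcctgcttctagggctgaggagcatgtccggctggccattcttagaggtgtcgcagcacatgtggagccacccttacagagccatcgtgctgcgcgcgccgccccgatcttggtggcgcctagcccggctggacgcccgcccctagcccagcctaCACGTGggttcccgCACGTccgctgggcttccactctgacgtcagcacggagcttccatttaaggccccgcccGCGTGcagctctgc
Bnip3: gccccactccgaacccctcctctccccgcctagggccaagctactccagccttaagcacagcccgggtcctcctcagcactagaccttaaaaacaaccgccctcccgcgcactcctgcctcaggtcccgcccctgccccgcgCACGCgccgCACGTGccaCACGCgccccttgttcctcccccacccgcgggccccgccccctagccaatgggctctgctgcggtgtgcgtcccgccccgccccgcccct
Mgarp: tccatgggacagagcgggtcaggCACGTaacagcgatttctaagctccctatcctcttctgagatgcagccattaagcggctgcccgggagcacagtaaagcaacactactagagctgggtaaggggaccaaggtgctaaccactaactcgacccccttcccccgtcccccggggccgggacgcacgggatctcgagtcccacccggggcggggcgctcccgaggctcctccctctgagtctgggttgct
Slc6a17: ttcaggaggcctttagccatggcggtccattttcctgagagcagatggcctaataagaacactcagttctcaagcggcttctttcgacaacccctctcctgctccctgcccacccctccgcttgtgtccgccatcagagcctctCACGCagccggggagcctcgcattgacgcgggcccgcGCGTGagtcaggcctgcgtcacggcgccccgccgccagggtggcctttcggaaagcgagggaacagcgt
Ldha and Bnip3 each hold 4 matches, with 1 CACGTG palindrome apiece, Mgarp holds 1 match and Slc6a17 holds 2.

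Mitochondrial respiration, which makes ATP from oxygen, was represented by 24 subunit genes, of which 23 were higher and 17 were higher in both groups. The median was small, 0.12 (0.09 without room air arrays 1 and 2), and no arrays were without overlap. Cyc1, cytochrome c1 of complex III, averaged 10.59 ± 0.20 (SD, n = 4) and 10.96 ± 0.15 (SD, n = 7), or 1.3-fold higher (limma, adjusted p = 0.246). Cox4i2, a cytochrome oxidase subunit isoform abundant in lung, was 1.28-fold higher. Sdhb of complex II differed by 0.43, of which 0.16 was seen without room air arrays 1 and 2.

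Cholesterol synthesis genes, which the sterol-sensing factor Srebf2 controls together, were higher in 18 of 18, and 16 of 18 were higher in both groups, with a median of 0.28. The median was 0.11 without room air arrays 1 and 2. Sqle, squalene epoxidase, stood at 7.85, 8.23, 8.98 and 8.99 in room air, 9.27, 9.24, 9.47 and 9.24 in hypoxia, and 9.57, 8.95 and 9.84 with SU5416. Room air arrays 1 and 2 were the lowest, and the difference shrank from 0.86 to 0.39 without them (limma, adjusted p = 0.223 and 0.396). Mvd, a decarboxylase of the mevalonate pathway, was 1.43-fold higher without overlap, and Acat2 and Dhcr7 were 1.45-fold and 1.33-fold higher, the latter with a difference of 0.41 that was 0.15 without those arrays. In fatty acid synthesis 12 of 13 genes were higher, with a median of 0.16, Acly and Fads2 among them at 1.21-fold and 1.17-fold.

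**Figure D3:**
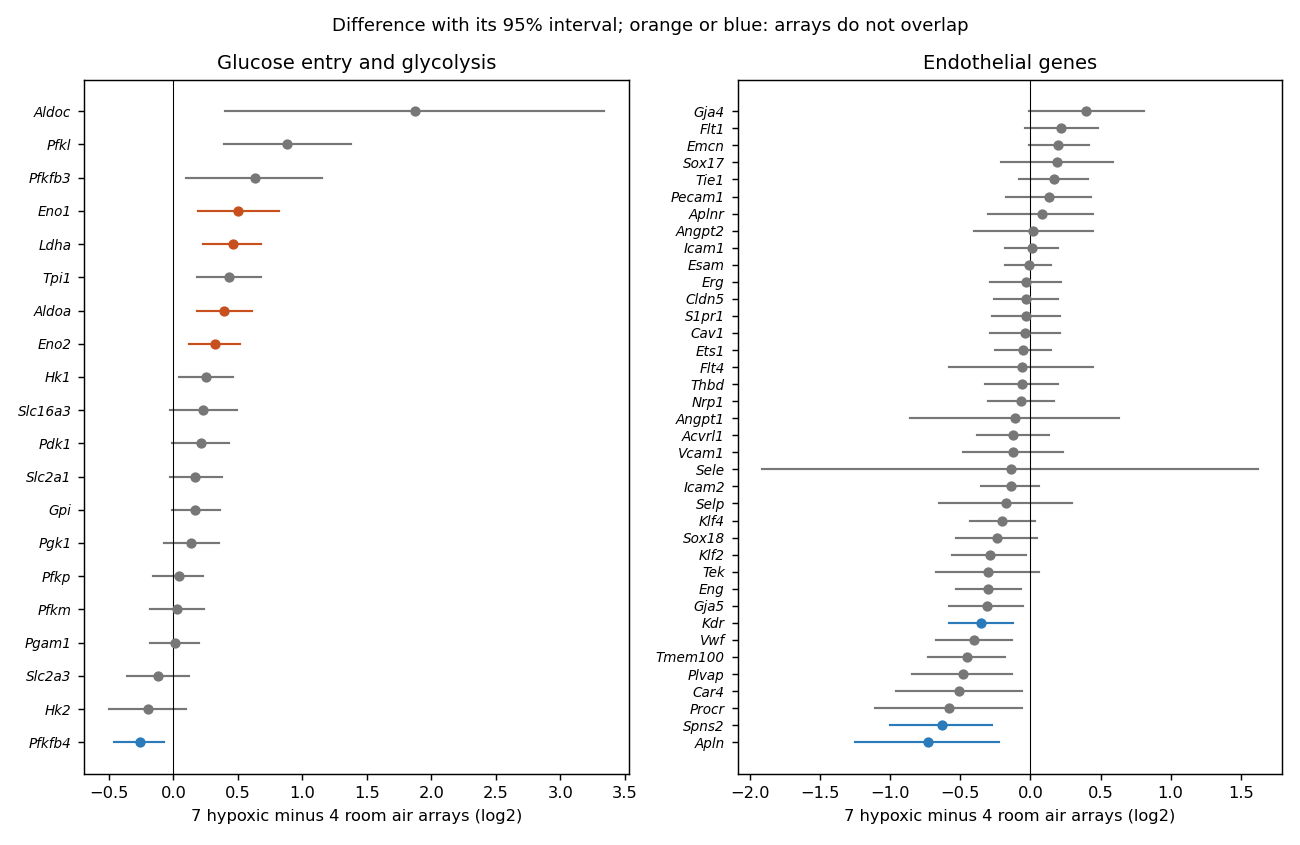
Difference between 7 hypoxic and 4 room air arrays (horizontal axis, log2) with its 95% interval for 20 genes of glycolysis and glucose entry (left) and 38 endothelial genes (right); coloured genes have arrays that do not overlap. Glycolytic genes lie mostly to the right of 0, with Aldoa, Eno1, Eno2 and Ldha coloured, and endothelial genes mostly to the left, with Apln, Spns2 and Kdr coloured.

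Endothelial genes leaned the other way. Of 38, 29 were lower and 20 were lower in both groups. An unadjusted p below 0.05 (limma) was reached by 11, all on the low side, against 8.49% of all probe sets lower and 4.45% higher. These shares are again over probe sets and not genes, with a split that depended on the scaling. The median was -0.12 with all arrays, -0.08 after quantile normalization and -0.02 without room air arrays 1 and 2. Kdr, the principal VEGF receptor and a direct target of SU5416, stood at 12.61, 12.64, 12.58 and 12.48 in room air, 12.38, 12.27, 12.27 and 12.41 in hypoxia, and 11.87, 12.18 and 12.21 with SU5416. It was 1.27-fold lower (limma, adjusted p = 0.245) and the arrays did not overlap. The other Kdr probe set, a dimmer one, differed by -0.16 with overlap.

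Apln, the endothelial ligand of the apelin receptor, stood at 11.51, 11.47, 11.24 and 11.30 in room air, 10.94, 10.82, 10.98 and 11.21 in hypoxia, and 9.82, 10.35 and 10.41 with SU5416. Both hypoxic groups were lower, with differences of -0.39 and -1.19, and SU5416 minus hypoxia was -0.79 (95% interval -1.15 to -0.43, not adjusted). Spns2, the sphingosine-1-phosphate exporter of endothelium, was 1.55-fold lower, again with the larger difference under SU5416 (-0.94 against -0.41). Tmem100, an endothelial BMP target, was 1.37-fold lower and Vwf, von Willebrand factor, 1.32-fold, the latter with a difference of -0.16 without room air arrays 1 and 2. Flt1, the decoy-like VEGF receptor, was 10.30 ± 0.22 and 10.53 ± 0.15, a difference of 0.22 (0.41 without those arrays). Its dimmer probe sets differed by -0.26 and -0.11 (-0.69 and -0.25 without those arrays). On both, hypoxia was lower than room air (-0.53 and -0.48) and hypoxia with SU5416 higher (0.09 and 0.38), so the Flt1 probe sets disagree.

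The 7 measured defining markers of endothelium had a summed signal of 14.70 to 15.04 log2 in room air and 14.54 to 14.85 in hypoxia, so the ranges overlap. Of these markers 5 were lower and 2 higher, none called. The part of cell number in the values of endothelial genes, and of the leukocyte genes described later, was not tested.

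BMP and TGF-beta genes had no common direction, with 15 of 35 higher, 20 lower and a median of -0.03 (0.04 without room air arrays 1 and 2). Of the 35, Smad6 and Bmp6 alone had arrays without overlap, against 2.42% of all genes. Bmp6, a BMP ligand made by endothelium, stood at 11.88, 11.90, 11.73 and 11.89 in room air, 11.60, 11.52, 11.36 and 11.66 in hypoxia, and 11.08, 11.27 and 11.36 with SU5416, or 1.36-fold lower (limma, adjusted p = 0.201). A second Bmp6 probe set also differed by -0.44 without overlap. The remaining Bmp6 probe sets had overlap and differed by -1.22 and 0.03 (-2.53 and -0.51 without room air arrays 1 and 2). The former had its hypoxic mean below background and the latter both means. Bmper, a BMP-binding endothelial protein, was 1.36-fold lower, a difference of -0.44 that was -0.71 without those arrays, and the receptor Bmpr2, whose mutations cause heritable pulmonary hypertension, stood at 10.21 ± 0.10 and 9.96 ± 0.32 (95% interval of the difference -0.61 to 0.11).

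Grem1, a secreted BMP antagonist, was the widest of the list on the high side. It stood at 6.09, 6.58, 6.03 and 5.67 in room air, 7.19, 7.29, 7.41 and 6.03 in hypoxia, and 7.78, 8.43 and 8.42 with SU5416, or 2.66-fold higher (limma, adjusted p = 0.231). Hypoxia array 4 lay within the room air range and the SU5416 arrays were the highest.

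Vasoactive genes were mixed as well, with 14 of 33 higher, 19 lower and a median of -0.09. The serotonin transporter Slc6a4, which clears serotonin from blood in lung endothelium, stood at 10.06, 10.12, 10.50 and 10.74 in room air, 9.80, 9.34, 9.64 and 9.91 in hypoxia, and 9.44, 9.43 and 9.20 with SU5416. It was the 1 member of 33 without overlap (2.42% of all genes). Its signal was 1.76-fold lower (limma, adjusted p = 0.138, and 0.0663 without room air arrays 1 and 2). Ptgis, prostacyclin synthase, was 1.55-fold higher and Edn1, the vasoconstrictor endothelin 1, 1.39-fold higher. Nos3, endothelial nitric oxide synthase, averaged 7.49 ± 0.07 and 7.91 ± 0.27, or 1.34-fold higher. In the separate list of calcium entry and potassium channels 12 of 17 genes were higher and 5 lower, with a median of 0.12. Orai1, the pore of store-operated calcium channels, was the 1 member of 17 without overlap (2.42% of all genes). It averaged 9.73 ± 0.09 and 10.12 ± 0.12, or 1.31-fold higher (limma, adjusted p = 0.154).

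The 2 of 22 coagulation genes without overlap, against 2.42% of all genes, were both lower. Tfpi, the inhibitor of the tissue factor pathway, averaged 10.91 ± 0.08 (SD, n = 4) and 10.35 ± 0.23 (SD, n = 7), or 1.48-fold lower (limma, adjusted p = 0.155), and coagulation factor gene F8 was 1.41-fold lower. The 5 F8 probe sets differed by -0.58 to 0.11, 1 of them without overlap. Tissue factor itself, F3, was 1.48-fold higher with overlap. Of the 22 genes of the list 9 were higher and 13 lower.

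Collagens and their crosslinking enzymes were higher in 22 of 22 genes, 18 of them in both groups, with a median of 0.26 (0.10 without room air arrays 1 and 2). Col4a2, a basement membrane collagen, stood at 12.05, 12.09, 11.83 and 11.85 in room air, 12.66, 12.46, 12.21 and 12.14 in hypoxia, and 12.27, 12.34 and 12.11 with SU5416. It was the 1 gene of 22 without overlap (2.42% of all genes), by a small margin, and was 1.28-fold higher (limma, adjusted p = 0.27). Col1a1, the fibrillar collagen of scars and vessel walls, was 1.64-fold higher, with a difference of 0.71 that was 0.43 without those arrays, and Col18a1, the source of endostatin, 1.68-fold. Among 29 matrix glycoproteins and proteases 24 were higher, with a median of 0.18 (0.10 without those arrays), including the proteoglycans Bgn (1.48-fold) and Vcan (1.62-fold). The 5 Vcan probe sets differed by -0.22 to 0.71, all with overlap. All 6 fibroblast markers were higher, none called, with summed signals of 14.22 to 14.78 in room air and 14.30 to 14.90 in hypoxia.

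Of 21 smooth muscle contractile genes 15 were higher and 6 lower, with a median of 0.21. An unadjusted p below 0.05 (limma) was reached by 8 on the high side and 1 on the low side, against 4.45% and 8.49% of all probe sets. Here too the shares are over probe sets and not genes, and their split depended on the scaling. Acta2, smooth muscle actin, averaged 11.65 ± 0.30 and 12.01 ± 0.17, or 1.28-fold higher, and Tpm2 and Myl9, tropomyosin and myosin light chain genes, were 1.64-fold and 1.45-fold higher (limma, adjusted p = 0.253 and 0.276). The other Tpm2 probe set differed by -0.29. Without room air arrays 1 and 2 the difference of Acta2 was 0.61 in place of 0.36. Synpo2, an actin-bundling protein, went the other way without overlap, at 9.71, 9.76, 9.68 and 9.72 in room air, 9.17, 9.47, 9.37 and 9.14 in hypoxia, and 9.34, 9.27 and 9.36 with SU5416, or 1.33-fold lower (0.131). Its other 3 probe sets differed by -0.05 to 0.24.

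Lymphocyte genes were lower. Of 25 T and NK cell genes 24 were lower and 21 were lower in both groups, with a median of -0.31 (-0.36 without room air arrays 1 and 2). Klrd1, an NK receptor and the 1 member of 25 without overlap (2.42% of all genes), was 1.57-fold lower (limma, adjusted p = 0.223). Cd2 and Zap70, of T cell adhesion and signalling, were 1.95-fold and 1.53-fold lower. The difference of Cd2, -0.96, was -0.60 without those arrays. The 7 defining T and NK markers were all lower, with summed signals of 11.28 to 11.70 in room air and 10.84 to 11.34 in hypoxia.

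Of 13 B and plasma cell genes 10 were lower and 9 were lower in both groups, with a median of -0.32 (-0.39 without room air arrays 1 and 2). Ms4a1, the B cell antigen CD20, stood at 8.47, 8.62, 8.86 and 8.69 in room air, 7.96, 8.10, 7.87 and 8.20 in hypoxia, and 8.30, 8.28 and 8.04 with SU5416, or 1.46-fold lower (limma, adjusted p = 0.131). No array overlapped. Bank1, a B cell adaptor, was 2.31-fold lower, with hypoxia array 4 (8.99) just above room air array 3 (8.96), and it was called among the brighter probe sets (0.0486). The kinase gene Blk and the adaptor gene Blnk were 1.53-fold and 1.69-fold lower without overlap, and the difference of Blnk, -0.76, was -1.15 without room air arrays 1 and 2. All 5 measured defining B cell markers were lower, with summed signals of 11.27 to 11.47 in room air and 10.33 to 11.35 in hypoxia.

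Macrophage genes were higher in 20 of 25, but the median of 0.26 became -0.01 without room air arrays 1 and 2. Fabp5, a fatty acid binding protein abundant in alveolar macrophages, stood at 10.87, 11.42, 12.03 and 11.73 in room air, 12.43, 12.27, 12.38 and 12.25 in hypoxia, and 12.94, 12.61 and 12.87 with SU5416, or 2.03-fold higher without overlap (limma, adjusted p = 0.143). Its difference of 1.02 was 0.66 without those arrays. C1qc, a complement subunit of interstitial macrophages, was 8.39 to 9.51 in room air, 9.30 to 9.50 in hypoxia and 10.41 to 10.99 with SU5416, so its higher mean rests on the SU5416 arrays. Its difference of 0.90 was 0.59 without room air arrays 1 and 2. Interferon-induced genes were lower in 19 of 22, with a median of -0.13, and Irf1 was 1.39-fold lower without overlap.

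Genes induced by glucocorticoids, the adrenal stress steroids, were higher in 14 of 16 and in both groups in 13, with a median of 0.48 (0.56 without room air arrays 1 and 2). Cebpd, a transcription factor, averaged 11.05 ± 0.18 and 11.73 ± 0.40 on its brightest probe set, or 1.6-fold higher (limma, adjusted p = 0.242). A dimmer one differed by 0.87 without overlap. Errfi1, a feedback inhibitor of growth factor receptors, and the kinase gene Sgk1 were 1.65-fold and 1.48-fold higher. Lcn2, a siderophore-binding lipocalin of neutrophils and epithelium, averaged 10.81 ± 1.28 and 12.22 ± 0.78. Its difference of 1.41 was 0.50 without room air arrays 1 and 2, and that of Sgk1, 0.56, was 0.37. Among immediate early genes 9 of 23 were higher and 14 lower, and Maff, a small Maf factor, was 1.65-fold higher without overlap (0.142).

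Cell cycle genes, a list that also holds inhibitors such as Cdkn1a (1.49-fold higher), were higher in 26 of 33, with a median of 0.18 that was 0.08 without room air arrays 1 and 2 and 0.07 in hypoxia against 0.34 with SU5416. Erythroid genes were higher in 7 of 11, Alas2, the first enzyme of haem synthesis in red cells, by 1.61-fold and Hbb, a beta globin gene, by 1.31-fold. Without room air arrays 1 and 2 the differences of Alas2 and Hbb were 0.20 and 0.12. Among alveolar epithelial genes 12 of 23 were higher and 11 lower, with a median of 0.02 (0.14 without those arrays), and Aqp4, a water channel, was 1.78-fold higher. The 3 Aqp4 probe sets differed by -0.65 to 0.83, the lowest of them with a hypoxic mean below background. In airway epithelium 8 of 15 were higher. Muc5b, a gel-forming mucin, was 1.96-fold higher and Scgb1a1, the club cell secretoglobin, 1.3-fold lower, with a difference of -0.38 that was -0.14 without those arrays.

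Cardiac muscle genes, which in rats mark the muscle sleeves of pulmonary veins, were lower in 18 of 25, and 12 were lower in both groups. The median was -0.22 (-0.49 without room air arrays 1 and 2), made of -0.37 in hypoxia and 0.01 with SU5416. The 4 measured cardiac markers had summed signals of 9.39 to 13.66 log2 in room air and 9.79 to 11.99 in hypoxia, a wide range within each group.

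**Figure D4:**
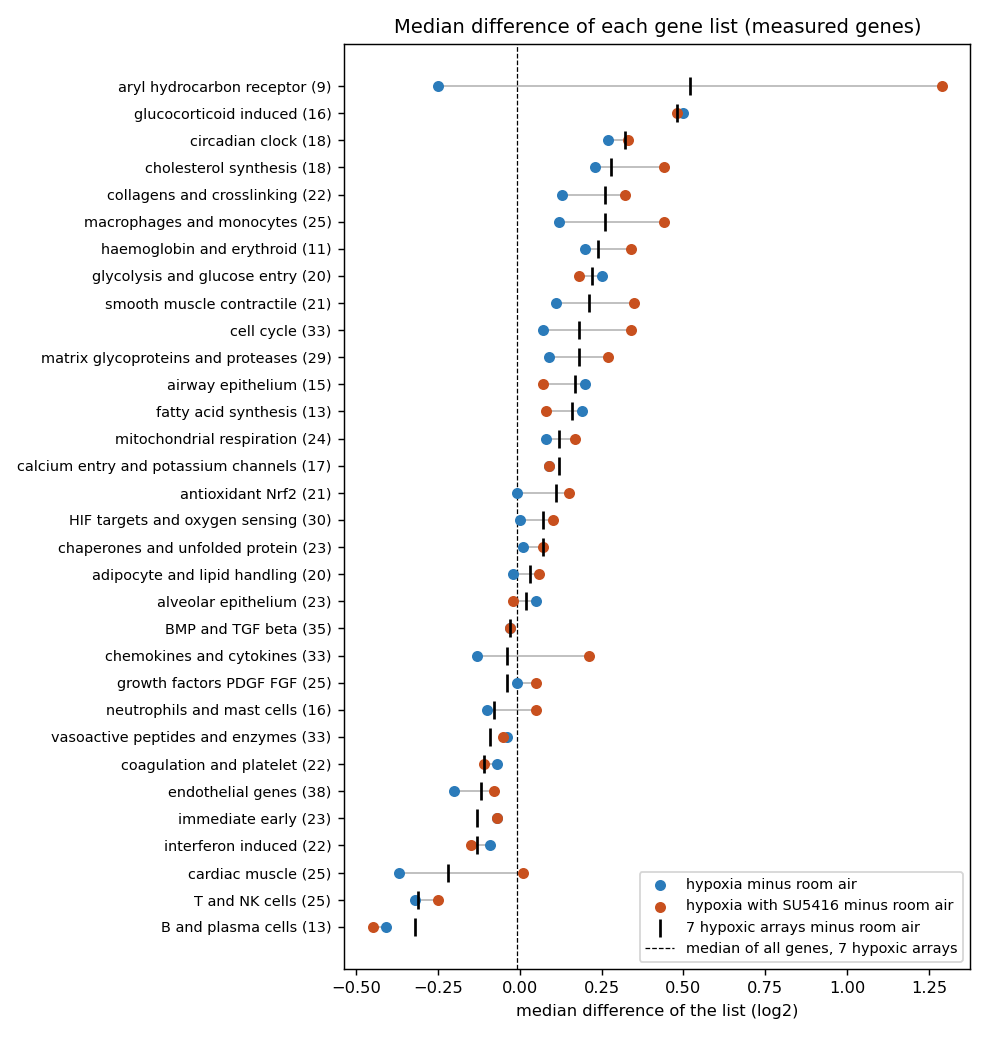
Median difference from room air (horizontal axis, log2) of each of 32 gene lists, with the number of measured genes in brackets, for hypoxia (blue), hypoxia with SU5416 (orange) and the 7 arrays together (black bar); the dashed line is the median of all genes, -0.01. Blue and orange lie on the same side of the line for cholesterol synthesis, collagens, glycolysis, T and NK cells and B cells. They lie on opposite sides for lists such as the aryl hydrocarbon receptor, cardiac muscle, chemokines and cytokines, neutrophils and mast cells, alveolar epithelium and adipocytes.

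A shared direction was not general. The aryl hydrocarbon receptor list, targets of the receptor for dioxins and many planar compounds, had a median of 0.52 over the 7 arrays, made of -0.25 in hypoxia and 1.29 with SU5416. Cyp1a1, its classical target, stood at 6.85, 6.60, 5.98 and 7.63 in room air, 4.30, 5.78, 3.94 and 4.63 in hypoxia, and 12.84, 12.92 and 12.90 with SU5416. The pooled difference of 1.42 had an SE of 2.06, and the SU5416 arrays exceeded the hypoxia arrays, whose mean of 4.66 is below background, by at least 7.17 log2 (limma, adjusted p = 7.61e-05). Cyp1b1 was 8.67 to 9.31 in room air, 8.79 to 9.17 in hypoxia and 12.38 to 12.56 with SU5416, a difference between hypoxic groups of 3.53 (limma, adjusted p = 2.88e-05).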

How the data were processed

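The authors deposited a table with 1 log2 signal for each probe set on each array. Per the submitters' processing notes they were made with RMA, with no version given. On every array the linear mean after trimming 2% at each end is 500, a mark of scaling to a common target, so the summarisation is uncertain and the log2 scale is not. Values were used as deposited; array medians lay between 7.802 and 8.005.

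The main fit (lmFit and eBayes of limma 3.58.1, under R 4.3.3) had a mean for the 7 hypoxic and the 4 room air arrays, 9 residual degrees of freedom, two-sided tests and Benjamini-Hochberg adjustment over 31042 probe sets, called below 0.05. A second fit with a mean per labelled group gave SU5416 with hypoxia against hypoxia. Of the probe sets, 20826 name 1 gene in the array annotation, 436 several and 9780 none, for 14217 genes.

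Named genes are called probe sets that share direction, filled up to 15 each way by smallest p among named probe sets without overlap and above background, then up to 4 members of smallest p per list and a fixed panel. Members and lists were chosen with earlier results of these data known. Alternatives were quantile normalization, median centring, leaving out dim probe sets, the average of group contrasts, trend and robust eBayes, array weights, the replicate block, the beta-actin gap as covariate, other thresholds, and leaving out arrays. The labels share replicate numbers, but deviations of same-numbered arrays correlated at -0.12 to 0.13, so they were not taken as pairs. Promoters were matched by symbol for 80 of 110 genes named. Tables used pandas 2.3.3 and numpy 2.4.6 under Python 3.11.15, and plots matplotlib 3.10.9.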

Additional observations from a re-analysis of the deposited data

Results flagged for a closer look

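Among 220 groups of 4 arrays examined for 1 array far from the others, 7 stood out, and chance alone marks about 1 group in 20. In room air, Ap3s1 was high on array 1 at 8.60 log2, against 7.95 to 8.02 on the others. Eno1 was low on that array at 10.67, against 11.28 to 11.33. Bmp6 was low on room air array 3 at 11.73, against 11.88 to 11.90.

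In hypoxia, array 4 was low for Grem1 at 6.03, against 7.19 to 7.41, and for Aqp4 at 9.53, against 9.87 to 9.91. Sqle was high on hypoxia array 3 at 9.47, against 9.24 to 9.27. Tia1 was high on hypoxia array 2 at 7.34, against 6.96 to 7.01.

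The hypoxic groups differed from each other for Cyp1a1 by at least 7.17 log2 (8.22 as measured, with the hypoxia mean below background) and for Cyp1b1 by 3.53 log2. Both were higher with SU5416 (limma, adjusted p = 7.61e-05 and 2.88e-05), so the pooled comparison does not describe these genes.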

How the results depend on the processing

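The number of calls, 1 of 31042 in the main fit, depended on nearly every setting. It was 29 at an adjusted p below 0.1 (16 higher, 13 lower) and 0 below 0.01, 0 after quantile normalization and 0 after centring, 27 among brighter probe sets (10 higher, 17 lower), 23 with trend and robust options (14 higher, 9 lower), 2 with array weights (1 higher, 1 lower), 2 with the beta-actin gap as a covariate (1 higher, 1 lower) and 55 without room air arrays 1 and 2 (38 higher, 17 lower). All of these had the same direction in both hypoxic groups. The plain average of both group contrasts called 2, both higher, of which 1 shared its direction and 1, Cyp1b1, differed between the hypoxic groups. Leaving out 1 array gave 0 to 21 calls in all, 0 to 12 higher and 0 to 9 lower, and the same 0 to 21 in a shared direction. The count of probe sets without overlap, 759, was 757 after quantile normalization, 710 after centring, 443 among brighter probe sets, 5187 without room air arrays 1 and 2, and 882 to 1852 with 1 array left out. With the replicate number as a block 1 probe set was called, and Slc6a17 had an adjusted p of 0.0848 (limma), so it was not that one. The numbers share no stated source, so a lost call there is not read as a weaker effect. The cause of these shifts was not tested. The fit of brighter probe sets also had fewer tests, and the fits that left out arrays had fewer arrays. For the 110 genes followed, 0 changed direction in any alternative, which leaving out arrays cannot do where they do not overlap, and 22 were called in at least 1. Of the 30 genes named by rank, 14 of the 17 tested were called among brighter probe sets, 15 with trend and robust options and 6 without room air arrays 1 and 2. The number of arrays limits the precision, and signals near background carry little information.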
